A study of Mus musculus with 7 samples.

Results

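The 8 genes described here are members of the machinery and the gene regulatory program of GABAergic neurons, namely Gad1, Gad2, Slc32a1, Dlx1, Dlx2, Dlx5, Dlx6 and Lhx6. They were taken by gene symbol from a table of 24346 genes, in which each of the 8 has a row, and were chosen with their difference between Med23 CKO and control mice already known. Their differences between the groups are therefore given as a description, without a test. RNA was sequenced from primary neurospheres, the floating colonies that neural stem cells (NSCs) form in medium with FGF and EGF, grown from the hippocampus of C57/BL6 mice aged 2 months. Each of the 7 libraries is 1 mouse, with WT_215, WT_116, WT_213 and WT_220 as the 4 controls, and KO_117, KO_214 and KO_218 as the 3 Med23 conditional knockouts (Med23 CKO). Med23 CKO mice carried Nestin-CreER and floxed alleles of Med23, a subunit of the Mediator complex that links transcription factors to RNA polymerase II. The controls, labelled wild type, were littermates with floxed alleles and no Cre by the study's methods, and all mice received tamoxifen by gavage at 200 mg/kg daily for 5 days. Recombination was limited to cells in which the Nestin promoter drove the Cre, so unrecombined cells may be part of a Med23 CKO culture.

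GABA is made from glutamate by the decarboxylases encoded by Gad1 (GAD67) and Gad2 (GAD65) and is loaded into synaptic vesicles by the transporter encoded by Slc32a1 (VGAT). In the embryo, cortical and hippocampal GABAergic interneurons are born in the ganglionic eminences of the ventral forebrain, where the homeodomain factors Dlx1, Dlx2, Dlx5 and Dlx6 act in sequence and Lhx6 marks the lineage of the medial eminence. NSCs of the adult dentate gyrus, in contrast, give rise to glutamatergic granule neurons.

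Levels are in FPKM, fragments normalized to transcript length and to the mapped fragments of the library, so genes can be compared with each other. Differences are between group means of log2(FPKM + 1), which understates the change of genes with low values. Of 8 neural stem cell markers, Nes was at 61.1 FPKM or more and Sox2 between 69.4 and 194 FPKM over the 7 libraries. Hes5 was lower and uneven, between 0.278 FPKM in WT_116 and 6.72 FPKM in WT_215. The cultures were not pure. Among the markers of mature oligodendrocytes, Mog ranged from 2.28 to 141 FPKM, and the summed level of 12 microglia and macrophage markers was 857 FPKM in KO_214 against 27.3 to 174 FPKM in the other 6 libraries. The mean of Med23 CKO was the higher one for 11 of 11 microglia and macrophage markers tested, and for 6 of 6 endothelial markers. Over all 14151 genes tested, it was for 6196. The groups overlapped for each of these markers. Cx3cr1, the marker too low for the test, had 0.382 FPKM in control and 0.33 FPKM in Med23 CKO on average. The higher means came largely from KO_214. The endothelial markers summed to 83.9 FPKM there and to 4.62 and 26.9 FPKM in KO_117 and KO_218, against 6.3 to 47.5 FPKM in control. The part of these cells in the values of the 8 genes was not tested. Med23 itself had 11.4, 10.3, 12.9 and 10.1 FPKM in WT_215, WT_116, WT_213 and WT_220, against 9.97, 9.27 and 8.12 FPKM in KO_117, KO_214 and KO_218, a log2 difference of -0.26 (standard error 0.11, limma, unadjusted p = 0.175, adjusted p = 1). Its adjusted p was between 0.594 and 1 over 16 alternatives. The floxed alleles remove part of the gene, and these values cover the whole gene, so they do not measure the removed exons alone. The study reports the deletion from other measures, qRT-PCR of Med23 RNA in neurospheres and western blot of hippocampal tissue. In bulk RNA-seq as used here, fewer cells of a type and less RNA per cell cannot be told apart.

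Only part of the GABAergic program was present in these neurospheres. Gad1 was the most abundant of the 8 genes, with a mean of 7.95 FPKM over the 7 libraries, and it supplied between 49.0% and 84.8% of their summed FPKM in a library. Gad2 followed with a mean level of 1.55 FPKM, Dlx2 with 0.733 FPKM and Dlx1 with 0.390 FPKM. Dlx6 had a mean level of 0.154 FPKM, Lhx6 0.0932 FPKM, Slc32a1 0.0217 FPKM and Dlx5 0.0209 FPKM. Gad1 exceeded Gad2 in 7 of 7 libraries, Gad2 exceeded Dlx2 in 6 and Dlx2 exceeded Dlx1 in 6, whereas Dlx1 exceeded Dlx6 in 4 and Slc32a1 exceeded Dlx5 in 3, so the lower part of this order is not resolved. Across the whole table, the mean level of Gad1 was at the 65.2th percentile and that of Dlx5 at the 25.3th. The label GABAergic thus fits mainly the RNA of Gad1, while Gad2 reached 1 FPKM in 4 of the 7 libraries. Slc32a1, Lhx6, Dlx5 and Dlx6 were at most 0.315 FPKM in any library of either group.

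**Figure D1:**
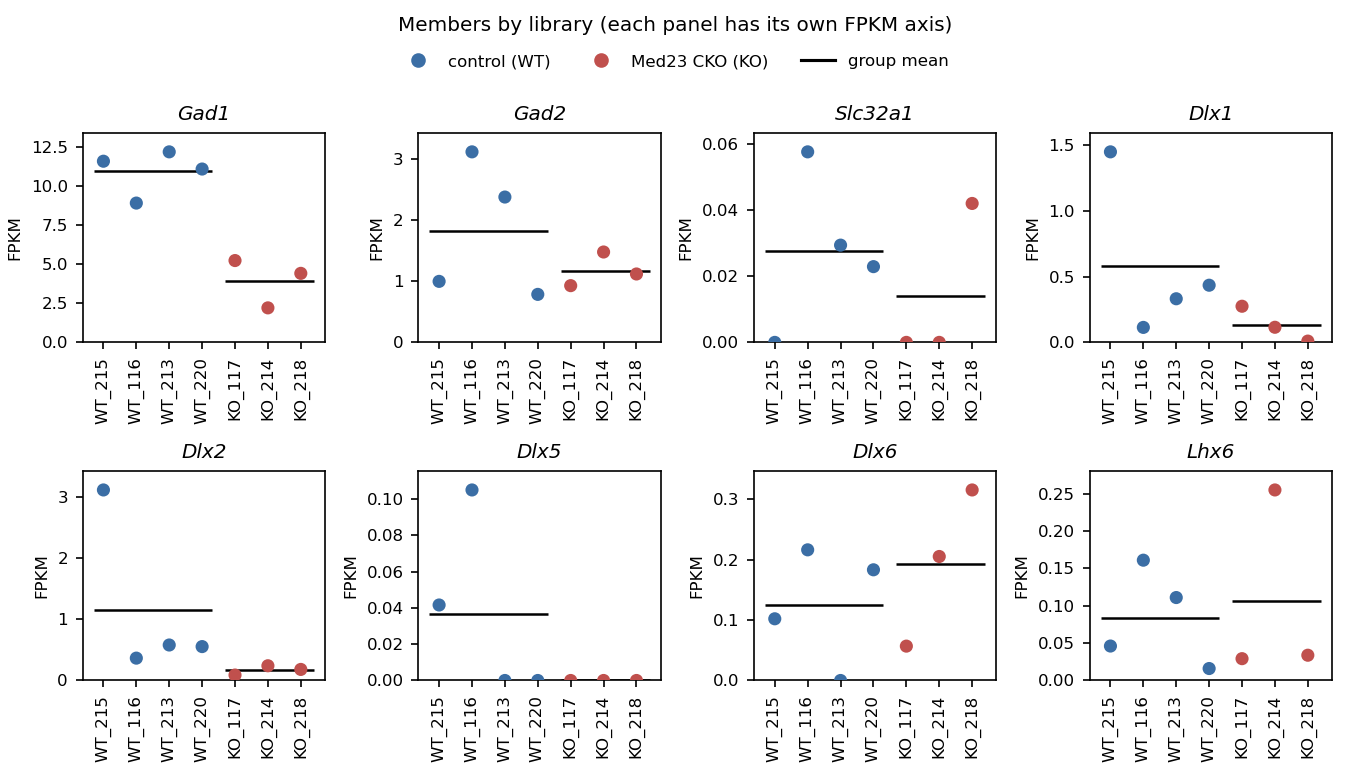
FPKM (vertical axis, a separate scale for each panel) of the 8 genes in the 4 control libraries (blue) and 3 Med23 CKO libraries (red), with lines at the group means. For Gad1 and Dlx2, all Med23 CKO points lie below all control points, and for the other 6 genes the groups overlap.

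Gad1, which encodes the decarboxylase that supplies most of the GABA of neuronal cell bodies, is a forward-strand gene of chromosome 2 (GRCm38, 70553072 to 70602014). It had 11.6, 8.92, 12.2 and 11.1 FPKM in WT_215, WT_116, WT_213 and WT_220, against 5.24, 2.21 and 4.42 FPKM in KO_117, KO_214 and KO_218. The groups did not overlap, and the lowest value was that of KO_214. Its control mean was 10.9 ± 1.42 FPKM (SD, n = 4), and that of Med23 CKO was 3.96 ± 1.57 FPKM (SD, n = 3), a 2.77-fold lower level and a difference of -1.32 (standard error 0.31) on the log2 scale. Dropping single libraries moved the log2 difference of Gad1 between -1.51, without KO_117, and -1.03, without KO_214. Dlx2 was the only other gene of the 8 whose groups did not overlap. Of the 8 genes, 2 thus had non-overlapping groups with Med23 CKO lower, beside 1.53% of the 14151 genes tested in the whole table, and 0 had Med23 CKO higher, beside 0.784%. Since the genes were chosen on this contrast, nothing is read from these counts.

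Gad2, the second GABA-synthesizing enzyme, which is found mainly at nerve terminals, did not follow Gad1. It had 0.999, 3.12, 2.38 and 0.786 FPKM in WT_215, WT_116, WT_213 and WT_220, against 0.929, 1.48 and 1.12 FPKM in KO_117, KO_214 and KO_218. The groups overlapped, with the lowest value and the highest value both in control libraries. The log2 difference of Gad2 was -0.30 (standard error 0.31), and it was -0.08 without WT_116. The ratio of Gad1 to Gad2 FPKM ranged from 2.86 to 14.1 in control and from 1.49 to 5.64 in Med23 CKO, and the ranges overlapped. KO_214 had the lowest ratio and WT_220 the highest.

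The 4 highest values of Gad2 were those of WT_116, WT_213, KO_214 and KO_218, which hold 2 libraries of each group. Of 15 interneuron subtype markers with a mean level of at least 0.5 FPKM, 7 had their 4 highest values in these same libraries, namely Sst, Pvalb, Cck, Calb1, Reln, Lamp5 and Ndnf (46.7%). Over all genes tested the share was 23.6%. It was 55.6% among 9 genes of the glutamatergic dentate lineage, 37.5% among 8 oligodendrocyte lineage markers, 81.8% among 11 microglia and macrophage markers and 100.0% among 6 endothelial markers. It was 14.3% among 14 general neuroblast and neuron markers, and 12.5% both among 16 ventral forebrain transcription factors and among 8 neural stem cell markers. The measure holds which 4 libraries were highest and not their order. For Gad2 the set rests on a small gap, with KO_218 at 1.12 FPKM and WT_215, outside the set, at 0.999 FPKM. Sst, a peptide of a large interneuron class, had 3.50 and 4.21 FPKM in WT_116 and WT_213, 2.60 and 2.27 FPKM in KO_214 and KO_218, and between 0.0999 and 0.855 FPKM in the other 3 libraries. The 4 highest values of Gad1 were those of the 4 controls. Pvalb, a marker of fast-spiking interneurons, had 1.25, 3.04, 3.03 and 0.618 FPKM in WT_215, WT_116, WT_213 and WT_220. In KO_117, KO_214 and KO_218 it had 0.226, 2.55 and 3.05 FPKM. The part of remaining neurons or of other cells in the levels of Gad1 and Gad2 was not tested.

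**Figure D2:**
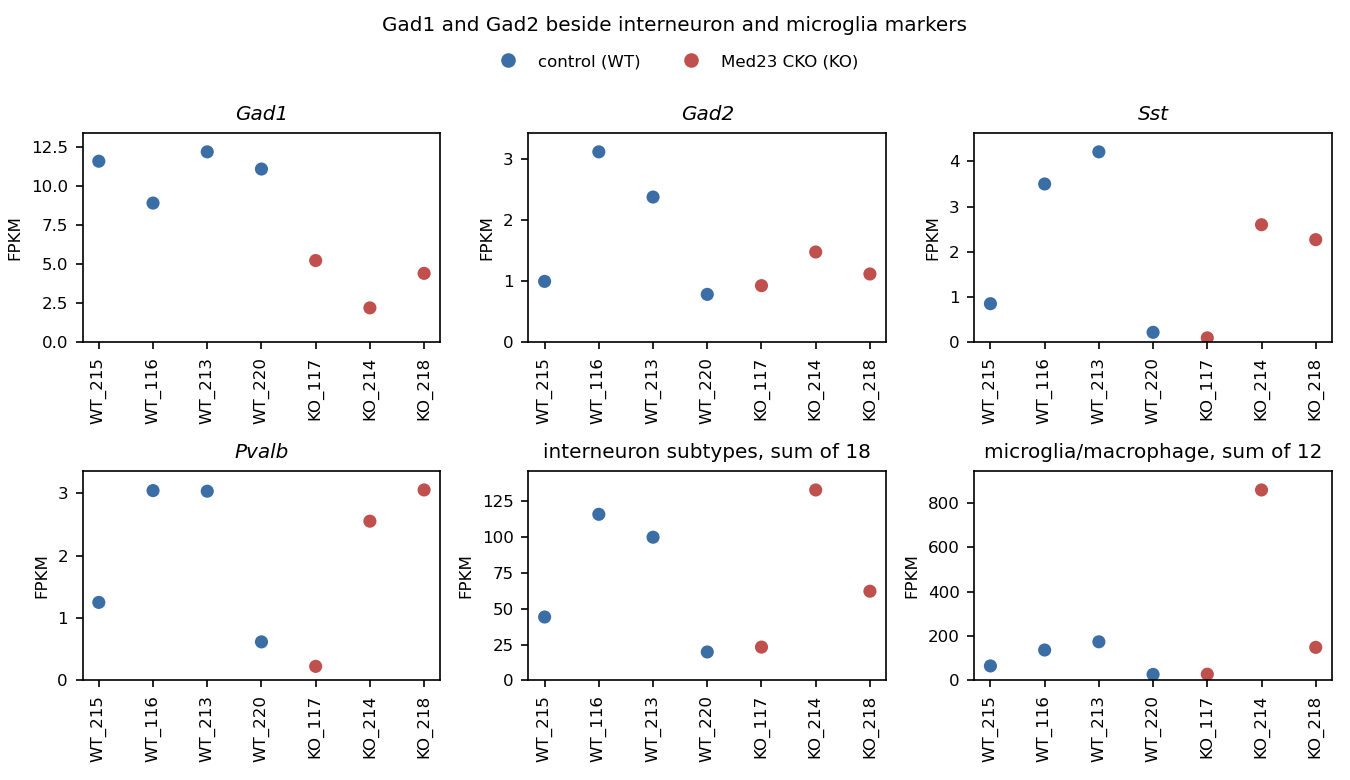
FPKM (vertical axes, from 0) by library of Gad1, Gad2, the interneuron markers Sst and Pvalb, and the summed FPKM of 18 interneuron subtype markers and of 12 microglia and macrophage markers, in control (blue) and Med23 CKO (red). Gad2, Sst and Pvalb are highest in WT_116, WT_213, KO_214 and KO_218, whereas Gad1 is higher in all 4 control libraries than in the 3 Med23 CKO libraries.

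Slc32a1, the vesicular transporter of GABA, was at or near 0 in every library. It had 0, 0.0576, 0.0294 and 0.0229 FPKM in WT_215, WT_116, WT_213 and WT_220, was listed at 0 in KO_117 and KO_214, and had 0.0420 FPKM in KO_218. The groups overlapped, and no direction can be given at such levels, where the depth of the libraries is unknown.

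Among the transcription factors, Dlx2, which acts early in GABAergic progenitors, had the highest level. Dlx2 had 3.12, 0.366, 0.581 and 0.555 FPKM in WT_215, WT_116, WT_213 and WT_220, against 0.0889, 0.241 and 0.181 FPKM in KO_117, KO_214 and KO_218. WT_215 stood far above the other control libraries, and the remaining controls were still above every Med23 CKO library. Outside WT_215, however, no value was above 0.581 FPKM, and the number of fragments behind such levels is unknown. The control mean was 1.15 ± 1.31 FPKM (SD, n = 4) and that of the CKO libraries 0.171 ± 0.0768 FPKM (SD, n = 3), a log2 difference of -0.72 (standard error 0.37). Without WT_215 the log2 difference of Dlx2 was -0.36.

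Dlx1, its neighbour and partner in the same progenitors, had 1.45, 0.114, 0.332 and 0.435 FPKM in WT_215, WT_116, WT_213 and WT_220, against 0.275, 0.115 and 0.00974 FPKM in KO_117, KO_214 and KO_218. As for Dlx2, WT_215 was highest, but WT_116 lay among the Med23 CKO libraries. The log2 difference of Dlx1 was -0.42 (standard error 0.26), and -0.19 without WT_215. WT_215 was also the library in which Nkx2-1, the factor that specifies the medial ganglionic eminence, had 2.67 FPKM, while it was at most 0.0941 FPKM in the other 6 libraries.

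The later factors of the Dlx family were barely present. Dlx5 had 0.0416 and 0.105 FPKM in WT_215 and WT_116 and was listed at 0 in the other 5 libraries, including all 3 of Med23 CKO. Dlx6 had 0.102, 0.216, 0 and 0.183 FPKM in WT_215, WT_116, WT_213 and WT_220, against 0.0568, 0.205 and 0.315 FPKM in KO_117, KO_214 and KO_218, with overlapping groups. Lhx6, the LIM-homeodomain factor needed for Sst and Pvalb interneurons, had 0.0461, 0.161, 0.111 and 0.0160 FPKM in the 4 controls and, in KO_117, KO_214 and KO_218, 0.0292, 0.255 and 0.0338 FPKM. The groups overlapped here too, and the highest value was that of KO_214. The log2 differences were -0.05 (standard error 0.03) for Dlx5, 0.08 (standard error 0.11) for Dlx6 and 0.03 (standard error 0.10) for Lhx6. Their relatives Dlx3 and Dlx4 were also low, with means over the 7 libraries of 0.0953 and 0.0400 FPKM.

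Genomic position groups some of these genes. On chromosome 2 of GRCm38 lie 6 of the 8, and the other 2, Dlx5 and Dlx6, are on chromosome 6. Dlx1 (chromosome 2, 71528113 to 71533981, forward strand) and Dlx2 (71543408 to 71546754, reverse strand) are transcribed towards each other with 9.43 kb between them. Dlx6 (chromosome 6, 6863334 to 6868568, forward strand) and Dlx5 (6877805 to 6882085, reverse strand) have the same arrangement with 9.24 kb between them. Gad1 lies 926 kb before Dlx1, Gad2 is at 22622205 to 22693874, Lhx6 at 36081953 to 36105408 on the reverse strand and Slc32a1 at 158610767 to 158615748.

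The antisense RNA Dlx1as, which spans Dlx1 on the opposite strand (71516454 to 71537891), had 1.25, 0.253, 0.189 and 0.178 FPKM in WT_215, WT_116, WT_213 and WT_220, against 0.127, 0.155 and 0.111 FPKM in KO_117, KO_214 and KO_218. It was highest in WT_215, like Dlx1 and Dlx2. Its groups did not overlap, but only by the small gap between 0.178 FPKM in WT_220 and 0.155 FPKM in KO_214. With a mean of 0.324 FPKM over the 7 libraries, Dlx1as was too low for the test. Dlx1as shares 335 exonic bases with Dlx1, which is 6.21% of the exonic bases of Dlx1 in GENCODE M21. The counting is not stated to use strand, so reads from these bases cannot be assigned to one of the pair. Dlx6os1, the antisense RNA of the Dlx5 and Dlx6 locus, was at most 0.0897 FPKM in any library.

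The genes around Gad1 did not share its difference. Of 8 genes of the table that overlap the 500 kb on either side, 6 had a mean level of at least 0.5 FPKM, and their log2 differences lay between -0.31 and 0.07 with a median of -0.03. Erich2, the nearest gene before Gad1, had 0.702 FPKM in control and 0.685 FPKM in Med23 CKO on average, and Gorasp2, the nearest after it and a Golgi protein gene, 65.6 and 64.8 FPKM. Mettl8, a methyltransferase gene, was the 1 gene of the 6 with groups that did not overlap, at a log2 difference of -0.31 (standard error 0.09). The antisense transcript Gad1os had 0.427 FPKM in control and 0.466 FPKM in Med23 CKO, and shares 0 exonic bases with Gad1. Metap1d, on the other side of Dlx1 from Dlx2, had a log2 difference of -0.23 (standard error 0.15) with overlapping groups. The nearest genes with a row on either side of Gad2 (Myo3a and Apbb1ip), Slc32a1 (Gm14204 and Actr5) and Lhx6 (Morn5 and Rbm18), and the outer neighbours of the Dlx genes (Platr26, Sdhaf3 and Slc25a13), also had overlapping groups.

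**Figure D3:**
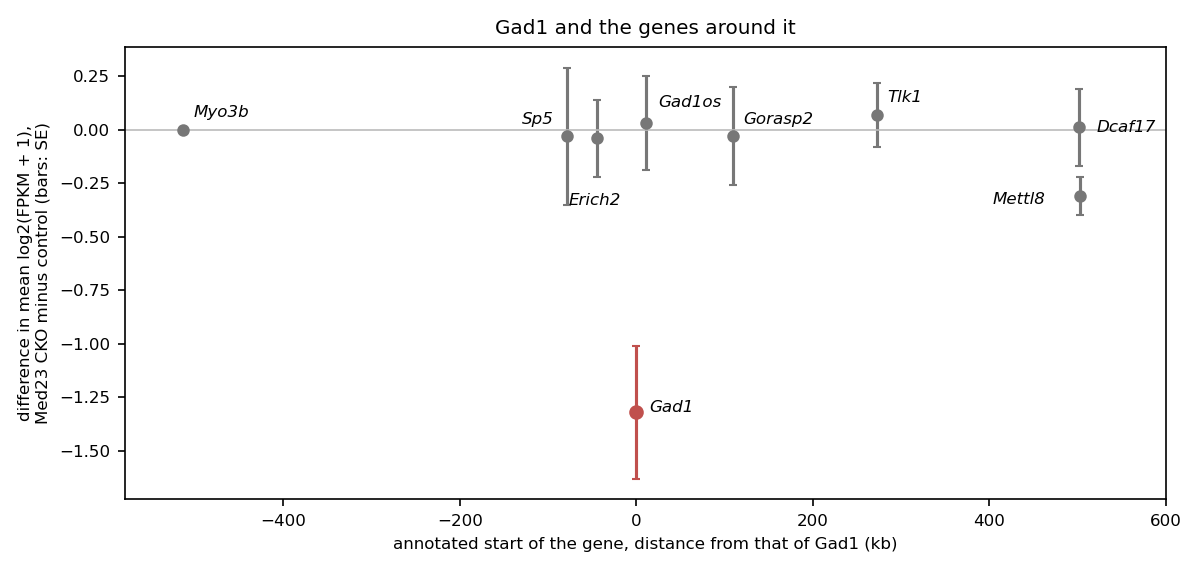
Difference in mean log2(FPKM + 1), Med23 CKO minus control, with its standard error (vertical axis), for Gad1 (red) and the genes of the table within 500 kb (grey), by the distance in kb of their annotated starts from that of Gad1 (horizontal axis). Gad1 lies at -1.32 and the other genes between -0.31 and 0.07.

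The bases before the RefSeq starts of Gad1 and Dlx2 are shown because these are the genes whose groups did not overlap. The sequences are from RefSeq on GRCm38.p6, 250 bases 5′ to 3′ on the strand of the gene up to the start of transcription that RefSeq gives, at chr2:70561879-70562128 (forward strand) for Gad1 and chr2:71546755-71547004 (reverse strand) for Dlx2. For Gad1, this start lies 9.06 kb inside the gene as GENCODE M21 annotates it, whose coordinates are used elsewhere here, and for Dlx2 the starts are the same. Capitals mark a match to TATAAA on either strand.
Gad1: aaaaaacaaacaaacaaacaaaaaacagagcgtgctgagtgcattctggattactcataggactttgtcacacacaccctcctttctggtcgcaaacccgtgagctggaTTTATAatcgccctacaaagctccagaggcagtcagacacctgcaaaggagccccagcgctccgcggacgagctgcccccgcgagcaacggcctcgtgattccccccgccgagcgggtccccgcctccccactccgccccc
Dlx2: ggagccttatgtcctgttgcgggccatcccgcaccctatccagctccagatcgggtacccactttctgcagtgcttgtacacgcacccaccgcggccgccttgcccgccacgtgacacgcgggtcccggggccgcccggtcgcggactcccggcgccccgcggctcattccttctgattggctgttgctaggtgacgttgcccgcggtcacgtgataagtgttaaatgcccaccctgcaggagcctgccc
The Gad1 window is 58.0% GC and the Dlx2 window 66.4%. Promoter windows of 300 bases, 50 of them after the start, were found for 6 of the 8 genes, all but Dlx5 and Dlx6, with 3 windows for Lhx6. The homeodomain core TAATTA, the E-box CAGCTG and the TATA box TATAAA were searched on both strands. TAATTA was in the window of 0 of the 6 genes, beside 6.12% of the 27025 genes with a window. CAGCTG was in that of Lhx6 alone, beside 18.3%, and TATAAA in those of Gad1 and Lhx6, beside 15.7%. The TATAAA match of Gad1 lay 141 bases before the start and that of Lhx6 3 bases after a start. Both were on the strand opposite to the gene. Since these are letters in a short window, no binding is read from them.

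Upstream and parallel regulators of the ventral forebrain were next described from a list of 24 other transcription factors, of which 16 had a mean level of at least 0.5 FPKM and were tested. Of these, 12 had a lower and 4 a higher mean in Med23 CKO, with a median log2 difference of -0.40, beside -0.03 over all genes tested and 56.2% of all genes with a lower mean. In limma's moderated test, 0 of the 16 had an unadjusted p under 0.05, beside 0.996% of all genes lower and 0.502% higher, and 0 had an adjusted p under 0.05, as for the whole table. Sall3 had the lowest log2 difference of the list, -1.32 (standard error 1.29), with overlapping groups and 55.8 FPKM in KO_117 against 3.12 and 7.77 FPKM in KO_214 and KO_218. Gsx1, a homeodomain factor of ganglionic eminence progenitors, had 5.83, 1.5, 1.61 and 8.43 FPKM in WT_215, WT_116, WT_213 and WT_220, against 3.55, 0.223 and 0.255 FPKM in KO_117, KO_214 and KO_218 (log2 difference -1.24, standard error 0.79). Etv1 was the only one of the 16 with groups that did not overlap, with a control mean of 29.6 ± 2.92 FPKM (SD, n = 4) against 24.9 ± 1.69 FPKM (SD, n = 3) in the CKO libraries (limma, unadjusted p = 0.162, adjusted p = 1). Sp8, a zinc finger factor of interneuron progenitors whose mean level was too low for the test, had 0.263, 0.297, 0.235 and 0.0573 FPKM in the 4 controls against 0.815, 0.603 and 0.96 FPKM in KO_117, KO_214 and KO_218, all above them. The other factors with the highest levels, Nr2f1 and Zeb2, had log2 differences of -0.28 (standard error 0.82) and 0.13 (standard error 0.45).

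A list of 7 genes for GABA transport, GABA breakdown and chloride balance held both abundant and scarce genes. Abat, the GABA transaminase, had a control mean of 20.2 ± 8.14 FPKM (SD, n = 4) against 29.8 ± 17.1 FPKM (SD, n = 3) in the CKO libraries. Slc12a2, the chloride importer NKCC1, had 80.8 ± 51.2 FPKM (SD, n = 4) and 72.7 ± 44.2 FPKM (SD, n = 3), and Slc6a11, the transporter GAT-3, 17.5 ± 8.35 FPKM (SD, n = 4) and 17.7 ± 4.47 FPKM (SD, n = 3). Slc6a13, the transporter GAT-2, had 0.426 FPKM in control and 0.367 FPKM in Med23 CKO on average and was the 1 gene of the 7 that was not tested. Of the other 6, 3 had a lower and 3 a higher Med23 CKO mean, and in limma 0 had an unadjusted p under 0.05.

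Of 22 genes for GABA receptor subunits and their scaffold, 15 were tested, with 11 lower and 4 higher means and a median log2 difference of -0.14. Only Gabbr1, a subunit of the metabotropic GABA-B receptor, had an unadjusted p under 0.05. Gabbr1 had 28.4, 30.6, 29.5 and 30.6 FPKM in WT_215, WT_116, WT_213 and WT_220, against 24.7, 22.0 and 20.5 FPKM in KO_117, KO_214 and KO_218. The groups did not overlap, with a log2 difference of -0.40 (standard error 0.08, limma, unadjusted p = 0.0281, adjusted p = 1), so the difference of Gabbr1 failed the correction over the whole table. The adjusted p of Gabbr1 was between 0.594 and 1 over 16 alternatives. Gabbr2, its partner subunit, had 1.95, 1.29, 0.689 and 3.85 FPKM in the 4 controls (same order) and 2.86, 0.379 and 0.624 FPKM in the 3 CKO libraries, with overlapping groups. The highest levels beside Gabbr1 were those of the inhibitory synapse genes Nlgn2 and Gphn and of Gabra2, among others, these 3 with overlapping groups and log2 differences between -0.31 and 0.14.

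Markers of interneuron subtypes were present at variable levels. Of 18, 15 were tested, with 9 lower and 6 higher means in Med23 CKO, a median log2 difference of -0.03 and 0 genes at an unadjusted p under 0.05 in limma. Npy, a peptide of several interneuron types, had 20.1, 55.0, 56.8 and 9.41 FPKM in WT_215, WT_116, WT_213 and WT_220, against 2.55, 63.9 and 17.2 FPKM in KO_117, KO_214 and KO_218. Its values spread widely within both groups. Cck had log2 differences of 0.21 (standard error 1.40), Reln -0.13 (standard error 1.18) and Htr3a 0.83 (standard error 1.06), all with overlapping groups. The summed level of the 18 markers was lowest in WT_220 (19.9 FPKM) and highest in KO_214 (133 FPKM), with overlapping groups, whereas that of the 8 GABAergic fate genes was between 13.1 and 17.3 FPKM in control and between 4.51 and 6.62 FPKM in Med23 CKO. The latter separation came largely from Gad1, and was part of how the genes were chosen.

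Genes of the glutamatergic dentate lineage and general neuronal genes were compared with the same fit. Of 9 lineage genes tested, of 14, 5 had a lower and 4 a higher mean, the median log2 difference was -0.04, and 0 had an unadjusted p under 0.05 in limma. Prox1, the factor of granule neuron identity, had a control mean of 11.5 ± 3.21 FPKM (SD, n = 4) against 10.6 ± 0.587 FPKM (SD, n = 3) in the CKO libraries. Emx2, Pax6 and Slc17a7, the vesicular glutamate transporter VGLUT1, had log2 differences of 0.05, -0.04 and -0.05. Of 14 neuroblast and neuron markers tested, 9 had a lower and 5 a higher mean, with a median of -0.24, and 0 had an unadjusted p under 0.05. Gap43, a growth cone protein, had a log2 difference of -0.98 (standard error 1.02), and the others with the highest levels (Cd24a, Map2 and Sox4) lay between -0.45 and 0.09. The groups overlapped for every gene tested of these 2 lists. Whether the differences of Gad1 and Dlx2 are unlike those of these genes was not tested, because the genes were chosen on them.

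**Figure D4:**
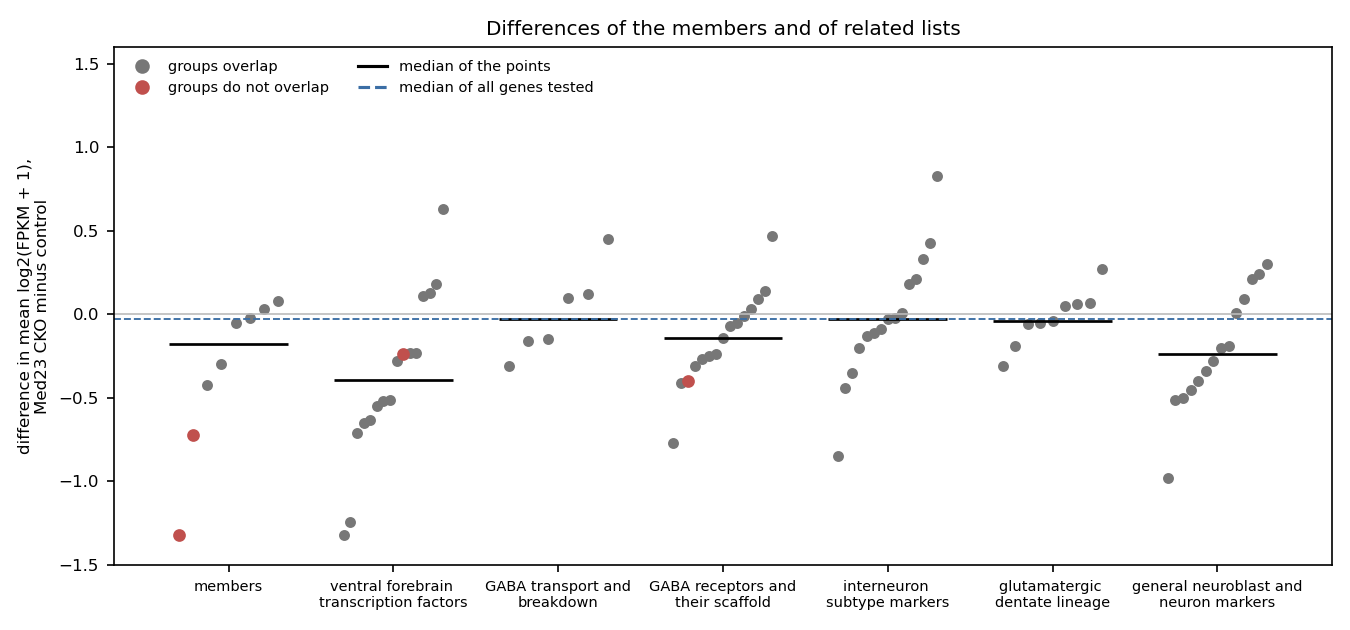
Difference in mean log2(FPKM + 1), Med23 CKO minus control (vertical axis), for all 8 GABAergic fate genes and for the tested genes of 6 related lists (horizontal axis), with red points for genes whose groups do not overlap, black lines at the median of each set and a dashed line at the median of all genes tested, -0.03. Red points are Gad1 (-1.32), Dlx2 (-0.72), Etv1 (-0.24) and Gabbr1 (-0.40).

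The genes with the pattern most like that of the 8 genes were found by Pearson's r between each gene's log2(FPKM + 1) and the mean of the 8 over the 7 libraries. They were Slc25a27 (r = 0.965), Shcbp1l (r = 0.955), Prkg2 (r = 0.952), Lpar2 (r = 0.950) and 9330159F19Rik (r = 0.950), out of 14148 genes, of which 15 had an r of at least 0.9. These r describe likeness over 7 libraries in 2 groups, which share the difference between the groups that the 8 genes were chosen for. Slc25a27, a mitochondrial carrier expressed in brain, had 9.22, 8.88, 8.42 and 7.33 FPKM in WT_215, WT_116, WT_213 and WT_220, against 6.3, 6.03 and 6.62 FPKM in KO_117, KO_214 and KO_218. Its Med23 CKO values were all below its control values. For Gad1 alone, a profile taken after its values were seen, the gene most like it was Rorb, a nuclear receptor gene (r = 0.988), with 5.61, 4.47, 6.15 and 6.36 FPKM in the 4 controls, again listed in that order, against 3.45, 1.74 and 3.15 FPKM in KO_117, KO_214 and KO_218. For Gad2 alone, likewise taken afterwards, 114 of 14150 genes had an r of at least 0.9, and for Gad1 27 did.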

How the data were processed

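RNA from 7 libraries of primary hippocampal neurospheres, 4 control and 3 Med23 CKO, each from 1 mouse, was measured by RNA-seq. Per the study's methods, the authors removed adapters, aligned the reads with Tophat (genome build mm10) and derived FPKM in Cuffdiff, and these deposited FPKM values per gene and library were used. The gene annotation is not given in the sources used here. The authors' columns of group means, fold changes and tests were not used, and 0 columns of samples without a group were found. Between 16841 and 18113 genes were above 0 in a library. The number of fragments behind a value is unknown, so no counting interval is given.

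Values were taken as log2(FPKM + 1), with a pseudocount of 1. Med23 CKO and control were compared with limma 3.58.1 in R 4.3.3 (eBayes with trend, two-sided, Benjamini-Hochberg adjustment) over the 14151 genes with a mean of at least 0.5 FPKM over the 7 libraries, of which 3 of the 8 GABAergic fate genes were part (Gad1, Gad2 and Dlx2). Differences are printed for all 8, with standard errors from the spread within each group. The fit was tested on simulated data. The genes and lists were chosen with earlier results of these data known. Named in each list were genes at an unadjusted p under 0.05 or with groups that did not overlap, up to 4 others with the highest mean, some singled out after their values were seen (Gsx1, Gabbr2, Sst, Pvalb, Abat, Nkx2-1 and Rorb among them), the 5 genes most like the mean of the 8, and the nearest neighbours of each. Some genes that this rule names are not reported here. Coordinates are from GENCODE M21 and promoter sequences from RefSeq, both on GRCm38, which is mm10. Alternatives were a pseudocount of 0.1, other filters, scalings and variance models, array weights, mouse number or Xist as covariate, and each library left out. Xist had 91.3 FPKM in WT_220 and 111 FPKM in KO_218, and at most 0.565 FPKM in the other libraries. Ddx3y, a gene of the Y chromosome, was lowest in these 2, at 0.0735 and 0.574 FPKM. The libraries thus appear to be of mixed sex, which the labels do not give.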

Additional observations from a re-analysis of the deposited data

Results flagged for a closer look

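Examined were 12 genes in the 4 control libraries (the 8 GABAergic fate genes, Etv1, Gabbr1, Med23 and Dlx1as). Of these, 2 had a library far from the others by Dixon's ratio of the gap to the range. The ratio was taken on FPKM without a log. Chance gives about 1 in 20 only for normally distributed values, which was not tested for these genes. For Dlx2, WT_215 lay above the other controls with a ratio of 0.922. For Dlx1as, at the same locus, WT_215 lay above them with a ratio of 0.93. Both values come from 1 library and 1 locus, so they are not independent of each other.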

How the results depend on the processing

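No paired analysis was made. The controls were littermates by the study's methods, but the labels do not give the litter of a mouse, so a pairing by litter could not be used. With a pseudocount of 0.1 the median log2 difference of the 8 genes moved from -0.17 to -0.40, that of Dlx2 from -0.72 to -1.78 and that of Dlx1 from -0.42 to -1.35, and in mice whose number starts with 2 the median was -0.01. With each library left out it lay between -0.26 and -0.05. Gad1 stayed between -1.52 and -1.03 over 10 alternatives. Gabbr1 kept its direction in 16 of 16 alternatives and an unadjusted p under 0.05 in 9.

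Over the whole table, limma gave 141 genes lower and 71 higher at an unadjusted p under 0.05. Array weights gave 887 lower and 193 higher, Xist as covariate 93 lower and no filter 140 higher, and with each library left out the counts ran from 71 to 410 lower and from 44 to 362 higher. At an adjusted p under 0.05 there were 0 genes, and between 0 and 1 with each library left out (Snora64 without KO_214 and Gm38671 without KO_218). Of the 52 tested genes in the 4 related lists, 1 was lower and 0 higher. A mean of at least 1 FPKM gave 2 lower, array weights 7 lower and 1 higher, Xist 0 lower, no filter 1 higher, and each library left out between 0 and 5 lower and between 0 and 2 higher. Of the glutamatergic and neuron genes, 0 were lower or higher, 1 was lower with array weights, and between 0 and 1 in each direction with each library left out. The cause was not tested for any of these shifts.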
